A study of Mus musculus with 24 samples.

Results

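Sult6b1 and Eif2ak2 lie side by side on mouse chromosome 17 and make up 2 of the 55401 gene IDs in a table of RNA-seq counts from the nucleus accumbens. They were taken from that table by gene ID. The pair was chosen by measured values of these libraries. Sult6b1 had the smallest p-value of all genes in 2 comparisons, SNI Gfp against Sham Gfp and Sham Mef2c against Sham Gfp. Eif2ak2, a gene induced by interferon, is the nearest protein-coding neighbour of Sult6b1. Values of both genes in those 2 comparisons are therefore given as a description, with no test. The question asked of the pair was whether the low counts of Sult6b1 follow those of Eif2ak2.

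The study measured RNA in mice whose left sciatic nerve had been injured by the tibial form of spared nerve injury (SNI), used to model chronic neuropathic pain, or exposed in a sham operation that left it untouched. The mice were 8 to 9 weeks old and of the C57BL/6J or DBA/2J strain, with no strain given for any single library. All had received AAV8 vectors in the nucleus accumbens of both hemispheres, carrying either Egfp alone (AAV8-hSyn-Egfp, called Gfp) or Mef2c together with Egfp (AAV8-hSyn-Mef2c-Egfp, called Mef2c). The hSyn promoter drives expression in neurons. Bilateral punches of the accumbens gave 24 libraries in 4 groups of 6, named by surgery and vector (SNI Mef2c, SNI Gfp, Sham Mef2c and Sham Gfp). Every group carries a virus, so there is no group without one. The labels do not say whether a library holds 1 mouse or several, and p-values measure only the spread between these libraries.

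Library totals lay between 25477019 and 36570108 counts. Markers of medium spiny neurons, the main cell type of the accumbens, were present in every library at a summed 1384 to 4372 CPM (counts scaled to library size). Mef2c itself, the gene the vector carries, was above the highest SNI Gfp library in 6 of 6 SNI Mef2c libraries. Of the 6 libraries labelled Sham Mef2c, 3 lay above the highest Sham Gfp library, and libraries 2 and 5, at 125 and 123 CPM, lay below the Sham Gfp mean of 169 CPM. The group labels for Sham Mef2c are used as deposited, and the direction of each difference from that group rests on them. SNI Gfp libraries 4 and 6 stood apart from the other 4 of their group by high interferon-induced genes, and results that rest on them are given with and without them.

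Eif2ak2 encodes PKR, a kinase that binds double-stranded RNA, a product of many viral infections. Once bound it phosphorylates the alpha subunit of the initiation factor eIF2, which lowers translation across the cell and starts the integrated stress response. Type I interferon raises transcription of Eif2ak2 through an interferon-stimulated response element (ISRE) near its start. Sult6b1 belongs to the cytosolic sulfotransferases, enzymes that move a sulfonate group from the donor PAPS onto small molecules such as hormones and transmitters. Other families of this class, Sult4a1 above all, are well known in brain.

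In the mm10 genome both genes are on the minus strand. Eif2ak2 (ENSMUSG00000024079.4) spans chr17:78852564-78882573 with 16 exons, and Sult6b1 (ENSMUSG00000038045.14) spans chr17:78883938-78906992 with 7 exons, by the GENCODE M21 annotation. The last exon of Sult6b1 ends 1364 bases before the first exon of Eif2ak2 begins, so Sult6b1 is the upstream gene and points at the start of Eif2ak2. Another annotated gene, the long intergenic RNA Gm26637, lies on the plus strand at chr17:78882042-78892500. It starts 531 bases inside Eif2ak2, in intron 1, crosses the Eif2ak2 start site with its exon 2 (chr17:78882345-78882947) and runs on into Sult6b1. It covers 8563 bases, or 37.1%, of the Sult6b1 span. Its exon 3 (chr17:78890855-78892500, 1646 bases) lies wholly inside Sult6b1 and covers 86 of the 95 bases of Sult6b1 exon 5 (chr17:78890846-78890940) on the opposite strand. Gm26637 itself was not analysed here.

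**Figure D1:**
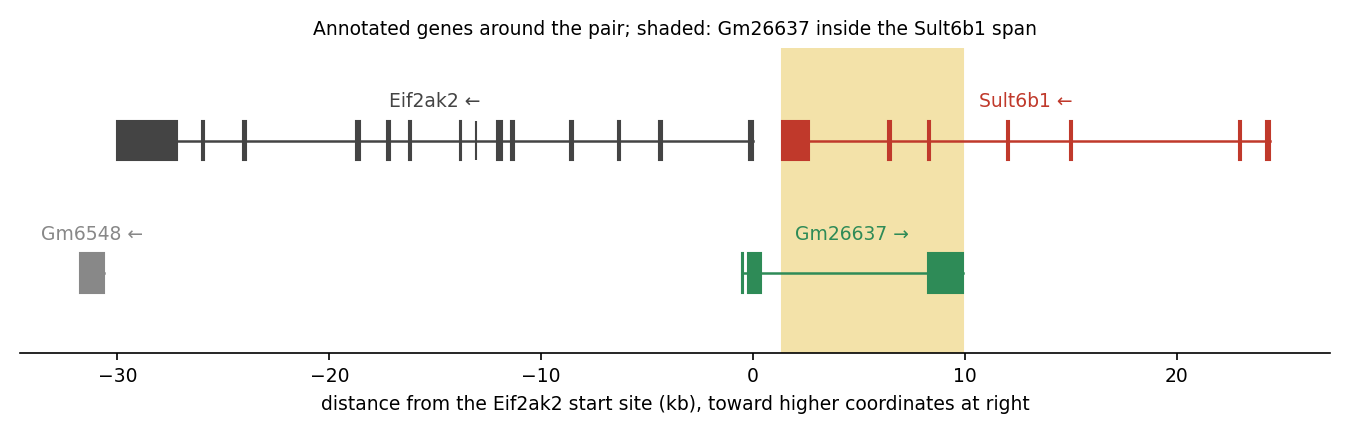
Annotated exons (boxes) and introns (lines) of Eif2ak2, Sult6b1, Gm26637 and the pseudogene Gm6548, against the distance in kb from the Eif2ak2 start site, with arrows for the direction of transcription. The shaded stretch is the 8563 bases of the Sult6b1 span that Gm26637 covers from the opposite strand, which holds 3 of the 7 Sult6b1 exons.

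The layout bears on the counts because of how they were made. The deposited FPKM values use the full gene span as the length for 42625 of 42625 genes, and a gene that lies inside another on the opposite strand never had more counts than the outer gene (1278 of 1278 pairs). Reads were thus counted over the whole span, introns included and without regard to strand, although the library kit keeps strand. Exons of Sult6b1-204 make up 8.94% of the Sult6b1 span and exons of Eif2ak2-201 make up 14.4% of the Eif2ak2 span. A read from Gm26637 that falls between the ends of Sult6b1 enters the Sult6b1 count, and cannot be told apart from a Sult6b1 read in these files. Likewise, 532 bases of Gm26637 lie inside the Eif2ak2 span, and reads from them enter the Eif2ak2 count. The share of Gm26637 reads in either count was not tested.

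The promoters are shown because interferon acts on one of the pair by a known element, and the stretch of Gm26637 is shown because it is the place where an exon of one gene faces an exon of the other. The promoter windows are RefSeq sequences of GRCm38.p6, 250 bases before to 50 bases after the annotated start, read 5′ to 3′ along the minus strand. Capitals mark a match to the ISRE core (GAAA, any 2 bases, GAAA) in the Eif2ak2 window, chr17:78882523-78882822, and the Sult6b1 window, chr17:78906943-78907242, has none. In the Gm26637 stretch, the first 180 bases of its exon 3 on the plus strand (chr17:78890855-78891034, GENCODE M21 transcripts), capitals mark the bases that face Sult6b1 exon 5.
Eif2ak2 promoter: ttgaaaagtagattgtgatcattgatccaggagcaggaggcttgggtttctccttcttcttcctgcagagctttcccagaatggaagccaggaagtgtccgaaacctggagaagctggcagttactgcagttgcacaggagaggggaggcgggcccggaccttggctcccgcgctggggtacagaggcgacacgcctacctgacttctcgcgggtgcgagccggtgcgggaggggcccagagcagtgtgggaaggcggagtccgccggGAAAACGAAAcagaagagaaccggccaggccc
Sult6b1 promoter: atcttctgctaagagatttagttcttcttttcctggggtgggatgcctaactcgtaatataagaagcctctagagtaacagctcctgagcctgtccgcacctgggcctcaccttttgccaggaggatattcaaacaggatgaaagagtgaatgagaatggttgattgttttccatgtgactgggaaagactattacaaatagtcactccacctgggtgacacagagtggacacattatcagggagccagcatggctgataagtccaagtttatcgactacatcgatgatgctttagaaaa
Gm26637 exon 3: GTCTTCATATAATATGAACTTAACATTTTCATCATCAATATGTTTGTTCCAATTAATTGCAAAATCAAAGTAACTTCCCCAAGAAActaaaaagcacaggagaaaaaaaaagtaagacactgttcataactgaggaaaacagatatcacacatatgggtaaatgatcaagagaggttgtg

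The ISRE core in the Eif2ak2 window, read with N as any base on both strands, starts 19 bases after the RefSeq start, at chr17:78882545-78882554. The same core was found in 1131 of the 32851 promoters of this length, or 3.44%. A core of the gamma-activated site, TTCNNNGAA, which reads the same on both strands, lay 178 bases before the start of Eif2ak2 (chr17:78882742-78882750) and was found in 2726 promoters, or 8.30%. Neither core matched in the Sult6b1 window. The whole Eif2ak2 window lies inside exon 2 of Gm26637, on the opposite strand. A match is a description of letters and not a measured binding site.

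Eif2ak2 was at its highest, and at its most variable, with the control vector. In Sham Gfp the lowest library had 26.5 CPM, the median was 51.7 CPM and the highest 76.0 CPM, with a mean of 51.1 CPM (SD 16.97, n = 6). In SNI Gfp the range ran from 10.3 CPM over a median of 14.8 CPM to 43.3 CPM, with a mean of 20.3 CPM (SD 12.7, n = 6). Libraries 4 and 6 of SNI Gfp, at 27.0 and 43.3 CPM, lay inside the Sham Gfp range, while the other 4 lay between 10.3 and 16.1 CPM, below every Sham Gfp library.

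With the Mef2c vector the gene was low and even. The libraries labelled Sham Mef2c ran from 9.80 to 13.04 CPM around a median of 10.9 CPM, with a mean of 11.1 CPM (SD 1.07, n = 6). SNI Mef2c ran from 10.2 to 13.2 CPM around a median of 11.6 CPM, with a mean of 11.6 CPM (SD 1.35, n = 6). These 2 groups overlapped almost wholly, and both lay below all 6 Sham Gfp libraries. The lower 4 SNI Gfp libraries reached down into the same range.

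Sult6b1 was much the scarcer gene. Per length of span, its mean FPKM was 0.173 in Sham Gfp, where Eif2ak2 had 1.73, and 0.0821 in the group labelled Sham Mef2c, where Eif2ak2 had 0.371. Single libraries held 45 to 166 Sult6b1 counts, against 250 to 2379 counts for Eif2ak2.

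In Sham Gfp, Sult6b1 ran from 3.11 CPM over a median of 3.78 CPM to 5.31 CPM, with a mean of 3.92 CPM (SD 0.849, n = 6). In SNI Gfp it ran from 2.04 CPM over a median of 2.30 CPM to 2.80 CPM, with a mean of 2.38 CPM (SD 0.342, n = 6). Unlike Eif2ak2, every SNI Gfp library lay below every Sham Gfp library, libraries 4 (2.16 CPM) and 6 (2.80 CPM) included. The libraries labelled Sham Mef2c ran from 1.78 to 2.02 CPM (mean 1.89, SD 0.0827, n = 6, median 1.88), and SNI Mef2c from 1.83 to 2.11 CPM (mean 1.98, SD 0.113, n = 6, median 1.98). Both Mef2c groups lay below the whole Sham Gfp range and overlapped each other, and the bottom of the SNI Gfp range, at 2.04 to 2.06 CPM, met the top of the SNI Mef2c range. In order of mean level the groups were Sham Gfp, SNI Gfp, SNI Mef2c and Sham Mef2c for both genes, and the last 2 did not differ beyond their spread for either.

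**Figure D2:**
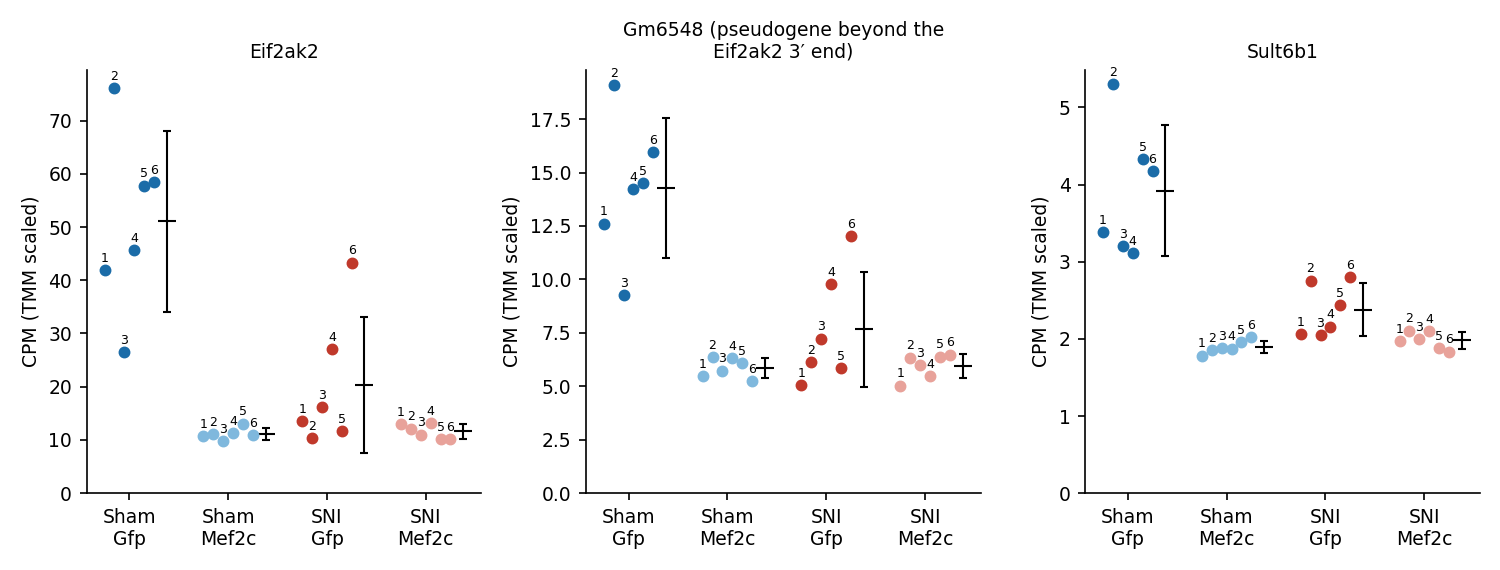
CPM (scaled by TMM) of Eif2ak2, the pseudogene Gm6548 and Sult6b1 in each of the 24 libraries, numbered by replicate, with the group mean and SD as a cross bar. Each panel has its own axis from 0. SNI Gfp libraries 4 and 6 are high for Eif2ak2 and Gm6548, whereas for Sult6b1 all 6 SNI Gfp libraries lie under the 6 Sham Gfp libraries.

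Counting error weighs on Sult6b1, above all in the Mef2c groups. The coefficient of variation of its CPM was 4.36% in the group labelled Sham Mef2c and 5.69% in SNI Mef2c, where Poisson counting at these depths alone gives 13.02% and 12.7%, so the libraries of the 2 Mef2c groups lay closer together than counting alone predicts. In Sham Gfp it was 21.7% against 8.89%, and in SNI Gfp 14.4% against 11.4%. For Eif2ak2 the variation exceeded the counting error in all 4 groups, at 33.2% against 2.46% in Sham Gfp and 62.7% against 3.84% in SNI Gfp. Counting error was thus a larger share of the spread for Sult6b1 than for Eif2ak2 in each group.

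The first comparison, nerve injury against sham with the control vector, is one that chose the pair. The log2 fold change of Sult6b1 was -0.72 (SE 0.11) and that of Eif2ak2 was -1.33 (SE 0.28), beside a median of 0.01 over all 23738 genes tested. No gene passed an adjusted p of 0.05 (0% called) in edgeR's quasi-likelihood test, 2928 genes had an unadjusted p under 0.05, and DESeq2 called 557. Groups in which every SNI Gfp library was below every Sham Gfp library were seen in 34 genes, or 0.143%, and Sult6b1 is one of them. Without SNI Gfp libraries 4 and 6, the value of Sult6b1 was -0.75 (SE 0.12), close to that with all libraries, while that of Eif2ak2 moved to -1.98 (SE 0.20).

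The second comparison, the Mef2c vector against Gfp after sham surgery, also chose the pair. The log2 fold change here was -1.05 (SE 0.12) for Sult6b1, and for Eif2ak2 it was -2.20 (SE 0.29). Both genes were separated between the groups, as were 1237 genes that were lower in every library (5.21%), and 9.41% of all genes were called in either direction, 7.93% lower and 1.48% higher. Leaving out libraries 2 and 5 of the group labelled Sham Mef2c, in which Mef2c was low, gave -1.04 (SE 0.14) for Sult6b1 and -2.25 (SE 0.35) for Eif2ak2. Sult6b1 in those libraries was at 1.85 and 1.96 CPM, inside the range of the other 4.

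The remaining 2 comparisons did not enter the choice, though each shares a group of libraries with one that did. After SNI, the Mef2c vector against Gfp gave Eif2ak2 a log2 fold change of -0.81 (SE 0.28, 95% interval -1.39 to -0.23), which did not pass (edgeR adjusted p = 0.211, the gene 930 of 23738 by p). Sult6b1 had -0.26 (SE 0.12, 95% interval -0.50 to -0.02) and did not pass either (edgeR adjusted p = 0.315). In both genes the groups overlapped, and 0.227% of genes were lower in every SNI Mef2c library. In this comparison 1 gene was called (0.00421%), 3383 had an unadjusted p under 0.05, and DESeq2 called 453. The Eif2ak2 value rests on 2 libraries: without SNI Gfp libraries 4 and 6 it was -0.16 (SE 0.19, adjusted p = 0.721), while Sult6b1 had -0.25 (SE 0.12, adjusted p = 0.387).

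SNI against sham with the Mef2c vector gave values close to 0. Sult6b1 had a log2 fold change of 0.07 (SE 0.12, 95% interval -0.18 to 0.31, edgeR adjusted p = 0.834). Eif2ak2 had 0.06 (SE 0.28, 95% interval -0.52 to 0.64, edgeR adjusted p = 0.946). The groups overlapped for both, and 0.695% of genes were lower in every SNI Mef2c library. No gene was called here (0%), 3816 had an unadjusted p under 0.05 and DESeq2 called 29. As a description, the vector difference after SNI less that after sham was 0.78 (SE 0.16) for Sult6b1 and 1.39 (SE 0.39) for Eif2ak2.

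Whether the low gene follows its neighbour was asked next from library to library. Between the means of Sham Gfp and the group labelled Sham Mef2c, a difference of 100 CPM in Eif2ak2 went with 5.06 CPM of Sult6b1. Between those of Sham Gfp and SNI Gfp it went with 5.01 CPM. Both comparisons share the Sham Gfp libraries, and both chose the pair. Their slopes restate the differences that chose it, and cannot decide whether Sult6b1 follows Eif2ak2. Within Sham Gfp alone the fitted slope was 4.59 CPM per 100 CPM. Between the means of SNI Gfp and SNI Mef2c it was 4.56 CPM per 100 CPM. That value rests on SNI Gfp libraries 4 and 6, which were high in Eif2ak2. Without them the log2 fold change of Eif2ak2 between these groups was -0.16 (SE 0.19), and that of Sult6b1 was -0.25 (SE 0.12). The slope without them is not reported here, so the value of 4.56 cannot decide the question either. The other slopes within groups were 0.916 in SNI Gfp, 2.60 in the group labelled Sham Mef2c and 6.46 in SNI Mef2c. Slopes within groups thus ran from 0.916 to 6.46. Differences among slopes were not tested.

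In Sham Gfp the 2 genes had a positive correlation over the 6 libraries (Pearson r = 0.850, exact permutation p = 0.0222, 0.0889 adjusted over the 4 groups; Spearman rho = 0.771, exact permutation p = 0.103). Library 2 was highest in both genes, and r was 0.905 without libraries 2 and 3, the farthest from the median. In SNI Mef2c r was 0.791 and rho 0.657 (exact permutation p = 0.0889 and 0.175, the former 0.178 adjusted; 0.631 for r without its 2 farthest libraries), over an Eif2ak2 range of 10.2 to 13.2 CPM. In the group labelled Sham Mef2c r was 0.328 and rho 0.20 (exact permutation p = 0.531 and 0.714, the former 0.707 adjusted; 0.045 for r without the 2 farthest). No within-group relation passed after adjustment.

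SNI Gfp had the lowest correlation of the 4 groups, and the difference between groups in this relation was not tested. Its r was 0.169 and its rho 0.029 (exact permutation p = 0.744 for r, also when adjusted, and 1.0 for rho). Without libraries 4 and 6, the farthest from the median, r turned to -0.937 over the 4 left, so its direction rests on those 2 libraries. Its exact permutation p of 0.0833 is the smallest that 4 libraries can give, so this test could not pass. Library 2 had the lowest Eif2ak2 of the group, 10.3 CPM, and nearly the highest Sult6b1, 2.75 CPM from 90 counts. With group means removed, all 24 libraries gave r = 0.474 and rho = 0.521 (permutation p = 0.0845 and 0.0445 from 100000 draws within groups). Without the 2 farthest libraries, Sham Gfp 3 and SNI Gfp 6, r was 0.280 (permutation p = 0.294), so the relation rests on them.

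Libraries with like Eif2ak2 in different groups, chosen after their values were seen, were set side by side. SNI Gfp library 4 and Sham Gfp library 3 had 27.0 and 26.5 CPM of Eif2ak2, but 2.16 and 3.20 CPM of Sult6b1. The 95% counting intervals were 1.71 to 2.69 CPM for the first, from 79 counts, and 2.62 to 3.87 CPM for the second, from 106 counts. SNI Gfp library 6 and Sham Gfp library 1 had 43.3 and 42.0 CPM of Eif2ak2, with 2.80 CPM (2.28 to 3.41) and 3.38 CPM (2.77 to 4.09) of Sult6b1. In each pair the Sham Gfp library was higher. Any such pair gives this order, since every SNI Gfp library lay below every Sham Gfp library for Sult6b1. That separation belongs to a comparison that chose the 2 genes. These pairs therefore cannot decide whether Sult6b1 follows Eif2ak2. These intervals cover counting error only and compare single libraries, not groups.

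**Figure D3:**
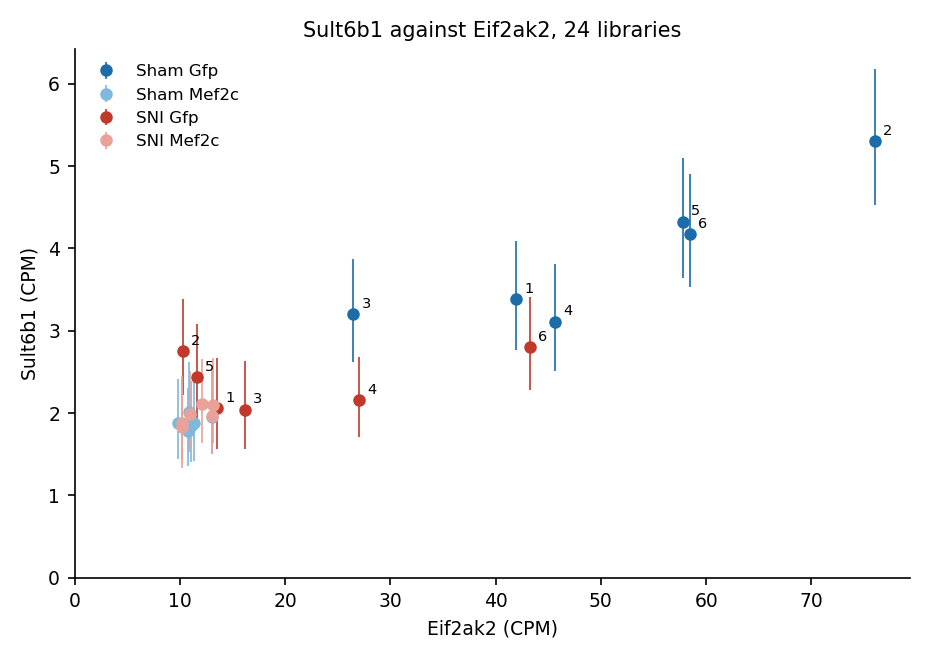
Sult6b1 against Eif2ak2 in CPM for the 24 libraries, coloured by group, with vertical bars for the 95% Poisson counting interval of Sult6b1 and numbers for the Gfp libraries. The Sham Gfp libraries rise together from 26.5 to 76.0 CPM of Eif2ak2. The Mef2c libraries gather near 10 CPM of Eif2ak2 and 2 CPM of Sult6b1. SNI Gfp libraries 4 and 6 lie under the Sham Gfp libraries of like Eif2ak2, as all SNI Gfp libraries lie under all Sham Gfp libraries for Sult6b1.

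With log2 Eif2ak2 as a covariate in the fit across all libraries, the slope was 0.188 (SE 0.081) log2 units of Sult6b1 per log2 unit of Eif2ak2. At equal Eif2ak2, the difference in Sult6b1 was -0.43 (SE 0.16) for SNI Gfp against Sham Gfp, where it had been -0.72. It was -0.64 (SE 0.21) for the group labelled Sham Mef2c against Sham Gfp, where it had been -1.05. In the comparison with the Mef2c vector after SNI it was -0.15 (SE 0.12), and -0.02 without SNI Gfp library 2. The slope ran from 0.121 without Sham Gfp library 2 to 0.254 without SNI Gfp library 2. These are descriptions with no test, and since the Eif2ak2 values of Sham Gfp and of the group labelled Sham Mef2c do not overlap, the second rests on a slope carried from within the groups. The mean of 26 interferon effector genes in place of Eif2ak2 gave -0.49, -0.69 and -0.14.

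The ratio of the 2 genes moved the other way from their levels. This restates the larger fold differences of Eif2ak2 in the comparisons that chose the pair, and is a description with no test. Summed over a group, there were 7.68 Sult6b1 counts for 100 Eif2ak2 counts in Sham Gfp, 11.3 in SNI Gfp, 17.1 in SNI Mef2c and 17.02 in the group labelled Sham Mef2c. Single libraries ran from 6.81 to 12.1 in Sham Gfp and from 6.47 to 26.8 in SNI Gfp, and stayed within 15.02 to 19.2 in both Mef2c groups. No Mef2c library reached down to the Sham Gfp range, and SNI Gfp spanned both.

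Other genes along the chromosome give the setting. Within 500 kb of the pair the table held 25 genes, and 19 passed the filter on low counts, the pair and 5 predicted genes and pseudogenes included. In the group labelled Sham Mef2c against Sham Gfp, 3 of the 17 other than the pair were called, beside 9.41% of all genes. They were the pseudogene Gm6548 and Prkd3, both lower, and 1 predicted pseudogene that was higher. In the 2 comparisons that did not enter the choice, none of the other 17 passed in edgeR. An unadjusted p under 0.05 was found for 2 and 4 of them, beside 3383 and 3816 of all 23738 genes.

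Gm6548 lies just past the 3′ end of Eif2ak2 on the same strand (chr17:78850792-78851956), inside the longer span that RefSeq gives Eif2ak2. Its mean was 14.3 CPM in Sham Gfp (SD 3.28, n = 6), 5.87 CPM in the group labelled Sham Mef2c (SD 0.466, n = 6), 7.67 CPM in SNI Gfp (SD 2.69, n = 6) and 5.95 CPM in SNI Mef2c (SD 0.580, n = 6). Its log2 fold changes were -0.89 for SNI Gfp against Sham Gfp and -1.28 for the group labelled Sham Mef2c against Sham Gfp. With group means removed, it correlated with Eif2ak2 at r = 0.862 and with Sult6b1 at r = 0.462 over the 24 libraries, which share depth and scaling. Like Eif2ak2, it was high in SNI Gfp libraries 4 and 6. Sult6b1 was at 2.16 CPM in library 4 and at 2.80 CPM, the highest of its group, in library 6.

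Prkd3, which encodes the serine/threonine kinase protein kinase D3, lies beyond Sult6b1 at higher coordinates. Its mean was 31.2 CPM in Sham Gfp (SD 3.56, n = 6), 23.7 CPM in the group labelled Sham Mef2c (SD 2.21, n = 6), 25.9 CPM in SNI Gfp (SD 2.02, n = 6) and 22.9 CPM in SNI Mef2c (SD 2.13, n = 6). With group means removed, Prkd3 correlated with Sult6b1 at r = 0.541 and with Eif2ak2 at r = 0.482. The pair had r = 0.474 with each other, and the difference between these values was not tested. The log2 fold changes were -0.27 for SNI Gfp against Sham Gfp and -0.40 for the group labelled Sham Mef2c against Sham Gfp, smaller than those of the pair. Between the pair and Prkd3 lie Cebpzos, Cebpz and Ndufaf7, and below Eif2ak2, past Gm6548, lies Gpatch11. In the second of those comparisons these 4 genes had -0.06, -0.10, 0.00 and 0.13, and none passed. These 4 genes, on both sides of the pair, thus had values near 0 where the pair was low. The near genes called there had -1.28 (Gm6548), -0.40 (Prkd3) and 0.36 (the predicted pseudogene).

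**Figure D4:**
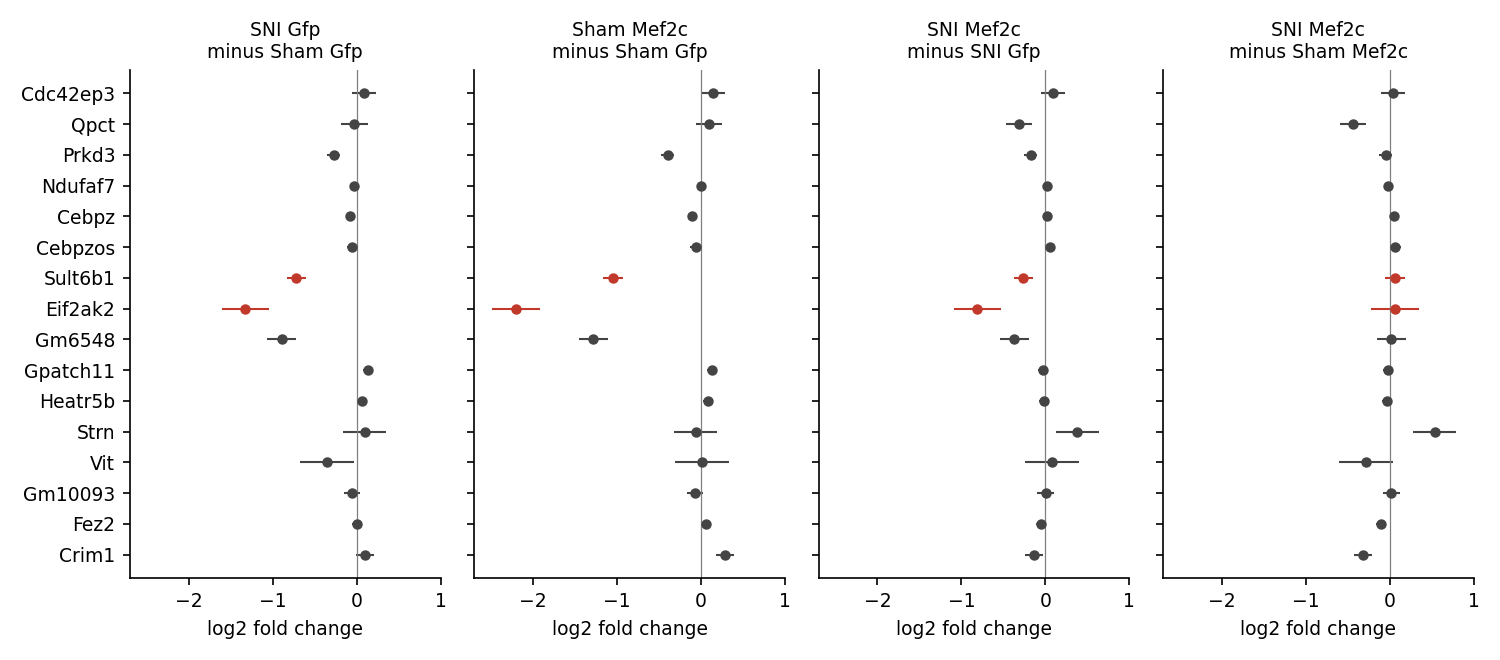
Log2 fold change with its SE for named genes within 500 kb of the pair that passed the filter, in chromosome order with the highest coordinate on top, in each of the 4 comparisons. Sult6b1 and Eif2ak2 are in red. In the first 2 panels the pair, Gm6548 and, less so, Prkd3 lie left of 0, and in the last panel the pair and Gm6548 lie at 0.06, 0.07 and 0.02.

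The genes most like each member from library to library were found with group means removed. Likeness is the Pearson correlation of log2 CPM over 24 libraries, ranked over 19091 genes with at least 1 CPM on average. For Eif2ak2 the 8 named genes with the highest values, from 0.95 to 0.98, were Ifit2, Nmi, Ifi44, Sp140, Rnf213, Tapbp, Oas1b and Ddx58. Ifit2 encodes an interferon-induced protein that binds viral RNA, Oas1b belongs to the oligoadenylate synthetases that sense double-stranded RNA, Ddx58 encodes the RNA sensor RIG-I and Tapbp a chaperone of antigen presentation. The 3 named genes at the other end were Fam168b, Abhd8 and Epb41l1, from -0.77 to -0.80.

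For Sult6b1 the values were lower, from 0.74 to 0.78, and the genes were Armc7, Limd1, Ggnbp1, Natd1, Col11a2, Nfatc3, Mcemp1 and Cenpe. Nfatc3 encodes a calcium-regulated transcription factor, Cenpe a kinetochore motor and Col11a2 a collagen chain. These 8 also correlated with Eif2ak2, at 0.40 (Col11a2) to 0.73 (Ggnbp1). At the other end were Htr2c, a serotonin receptor, Ppp2r1a and Mapre2, from -0.65 to -0.68. Eif2ak2, at 0.474, ranked 889 of 19090 genes by likeness to Sult6b1, just above the value of 0.467 under which 95% of genes lay. Sult6b1 in turn ranked 1878 of 19090 by likeness to Eif2ak2. With 45 to 166 counts a library, counting noise limits any such value for Sult6b1.

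The other kinases of eIF2 had similar means in all 4 groups. Eif2ak1 encodes HRI, which answers to heme, Eif2ak3 encodes PERK of the endoplasmic reticulum and Eif2ak4 encodes GCN2, which answers to amino acid shortage. Their means over the 4 groups were 58.4 to 63.3 CPM, 27.8 to 29.2 CPM and 56.1 to 57.9 CPM. Of the 3, none passed in any comparison with edgeR and all libraries. None had an unadjusted p under 0.05 in the 2 comparisons outside the choice. Without SNI Gfp libraries 4 and 6, 1 of the 3 was called, higher, for SNI Gfp against Sham Gfp. Over all genes, 1870 were called in that setting, counting both directions. Their summed level was 137 to 157 CPM in all 24 libraries.

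Regulators and substrates of PKR were measured in 16 of 16 cases. In the 2 comparisons outside the choice none passed in edgeR. An unadjusted p under 0.05 was found for 2 and 7 of the 16, beside 3383 and 3816 of all 23738 genes. Of the 7, for SNI against sham with the Mef2c vector, 5 were lower, and the smallest adjusted p was 0.223 in edgeR. Dnajc3, the inhibitor p58IPK, had -0.19 for the Mef2c vector after SNI (adjusted p = 0.132). Prkra, the activator PACT, had -0.29 (adjusted p = 0.443), and Adar, the RNA editing enzyme that limits double-stranded RNA, had -0.13 (adjusted p = 0.353). The alpha subunit of eIF2, Eif2s1, had 0.06 (adjusted p = 0.442). In the group labelled Sham Mef2c against Sham Gfp 1 of 16 was called, beside 9.41% of all genes. It was Eif2b3, a subunit of the exchange factor eIF2B, at 0.18. The list's median was 0.02 there, as over all genes.

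Targets of the integrated stress response, which follows eIF2 phosphorylation, were also measured in full. In the same comparison 5 of 16 were called, all lower, beside 7.93% of all genes lower. They were Atf3 (-2.14), Nupr1 (-1.89), Cebpb (-1.03), Atf5 (-0.45) and Ddit3 (-0.25), transcription factors and regulators, of which Atf3 and Cebpb also answer to inflammation. The list's median was -0.12 there, against 0.02 over all genes. In the 2 comparisons outside the choice none passed in edgeR. An unadjusted p under 0.05 was found for 1 and 2 of the 16, beside 3383 and 3816 of all 23738 genes. Sesn2, a stress-induced regulator of growth signalling, had -0.34 for the Mef2c vector after SNI (adjusted p = 0.265). Slc7a11, the cystine transporter, had -0.43 (adjusted p = 0.370).

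The sensors and effectors of double-stranded RNA and the interferon effectors were, like Eif2ak2, highest in Sham Gfp, at larger differences. In the group labelled Sham Mef2c against Sham Gfp, 13 of 15 sensors and 26 of 26 effectors were called lower, beside 7.93% of all genes, with medians of -3.65 and -3.37. Mavs, the adaptor downstream of RIG-I, was not called (-0.04). For the Mef2c vector after SNI the medians were -1.87 and -1.76, and none of the 41 genes passed in edgeR. Of the 15 sensors 14, and of the 26 effectors 24, had an unadjusted p under 0.05, beside 3383 of all 23738 genes. Oasl2 had -3.07 (SE 0.66, adjusted p = 0.0891), Mx1, an antiviral GTPase, had -2.78 (SE 0.64, adjusted p = 0.0894), and Ifit3 had -2.09 (SE 0.47, adjusted p = 0.0891). These values rest on SNI Gfp libraries 4 and 6. Without them the medians were -0.42 and -0.31, beside -0.01 over all genes. Oasl2 then had -0.94, Mx1 -1.41 and Ifit3 -0.75 (adjusted p = 0.350 for each in edgeR). In that setting 3 of the 15 and 4 of the 26 genes had an unadjusted p under 0.05. The like count over all genes is not reported here, so these 2 counts cannot be set against it. For SNI against sham with the Mef2c vector the medians were 0.00 and 0.04.

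The summed interferon effectors lay between 648 and 2025 CPM in Sham Gfp and between 181 and 1272 CPM in SNI Gfp. In both Mef2c groups they stayed within 174 to 237 CPM. The lowest Sham Gfp library was thus above every Mef2c library, and SNI Gfp spanned both.

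The relatives of Sult6b1 had values near 0 in most cases. Of 20 other sulfotransferases and genes of sulfate donor supply, 8 passed the filter on low counts. With all libraries, none was called in any of the 4 comparisons with edgeR. Without SNI Gfp libraries 4 and 6, 1 of the 8 was called, higher, for SNI Gfp against Sham Gfp. Over all genes, 1870 were called in that setting, counting both directions. The medians of the list lay between -0.02 and 0.07. Sult4a1, the brain sulfotransferase, was the most abundant per length, at 8.96 FPKM in Sham Gfp and 9.76 FPKM in SNI Mef2c. In the 2 comparisons outside the choice Sult1a1, an enzyme for phenols, had 0.00 and 0.27, Sult2b1, one for sterols, 0.18 and 0.33, and Sult5a1 0.11 and 0.43 (adjusted p from 0.323 to 0.998). The synthases of PAPS, Papss1 and Papss2, had 0.01 and 0.11 after SNI and -0.04 and 0.07 within the Mef2c vector, and the PAPS transporters Slc35b2 and Slc35b3 lay between -0.08 and 0.05.

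Markers of immune cells were, like the pair, highest in Sham Gfp. In the group labelled Sham Mef2c against Sham Gfp, 6 of 8 microglial markers were called lower, beside 7.93% of all genes. They were Cx3cr1, Tmem119, Csf1r, C1qa, C1qb and Aif1, whereas P2ry12 (-0.11) was not. Their summed level was 738 to 1296 CPM in Sham Gfp, 410 to 939 CPM in the group labelled Sham Mef2c, 421 to 1021 CPM in SNI Gfp and 438 to 510 CPM in SNI Mef2c. All 8 leukocyte markers were called lower, and their summed level was 26.4 to 158 CPM in Sham Gfp, 7.14 to 11.1 CPM in the group labelled Sham Mef2c, 8.49 to 101 CPM in SNI Gfp and 7.33 to 10.0 CPM in SNI Mef2c. Cd8a, the marker of cytotoxic T cells, reached 956 counts summed over Sham Gfp and 0 in the group labelled Sham Mef2c, which was the only marker at 0. Of the others, 2 of 8 astrocyte markers and 1 of 8 endothelial markers were called lower, and none of the medium spiny neuron, oligodendrocyte, ependymal or cortical neuron lists.

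In bulk tissue, fewer cells of a type and less RNA per cell cannot be told apart. The part of immune cells in the Sult6b1 counts was not tested. Markers of cortical neurons, which show tissue from outside the accumbens, varied between libraries of all groups from 91.4 to 1614 CPM in sum. With their mean as a covariate Sult6b1 had -0.75 for SNI Gfp against Sham Gfp and -1.08 for the group labelled Sham Mef2c against Sham Gfp, and Eif2ak2 had -1.32 and -2.19, close to the values without it.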

How the data were processed

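The authors deposited raw counts per gene for 24 libraries, made with featureCounts on mm10 per the submitters' processing notes. For the aligner, annotation and versions, nothing is recorded in the labels or headers. The authors also deposited FPKM, which matched counts over library total and gene span (793675 values, relative tolerance 1e-06). Of the 55401 IDs, 55141 matched a GENCODE M21 symbol, and both members matched. No pair of libraries within a group was a copy (smallest chi-square per degree of freedom 3.22).

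Genes were kept with filterByExpr (23738), scaled by TMM and fitted with edgeR 4.0.16 (quasi-likelihood, robust, 1 coefficient per group, 20 residual degrees of freedom, limma 3.58.1, R 4.3.3), adjusted by Benjamini-Hochberg over all genes. The SE is the log2 fold change divided by the square root of F. CPM are TMM scaled, log2 CPM use a prior count of 2, and correlations used exact permutations of 720 pairings or 100000 draws within groups (scipy 1.17.1), all two-sided. Alternatives were RLE scaling, library size alone, other filters, DESeq2 1.42.0, limma-voom with quality weights, limma-trend on log2 FPKM, a replicate block, a cortical covariate, the compared groups only and each library left out. The fit was tested on simulated counts.

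The members, the lists and the tests were chosen with earlier results of these data known. Named genes were the members, genes within 500 kb, the 8 most and 3 least alike genes of each member, all measured members of the small lists and, of the others, the 4 with the smallest p in the comparisons outside the choice. Other genes named are those called, or not called, where a count is spelled out. Values of some single list members are not reported here.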

Additional observations from a re-analysis of the deposited data

How the results depend on the processing

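In the 2 comparisons outside the choice, neither gene passed under any alternative run. For the Mef2c vector after SNI the adjusted p ran from 0.198 to 0.571 for Sult6b1 and from 0.103 to 0.721 for Eif2ak2 over other settings, and from 0.243 to 0.481 and from 0.0692 to 0.472 with 1 library left out. For SNI with the Mef2c vector it ran from 0.749 to 0.968 and from 0.747 to 1.0 over other settings.

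A pseudocount on FPKM shrank the low gene most. For SNI Gfp against Sham Gfp, Sult6b1 had -0.42 on log2(FPKM + 0.1) and -0.088 on log2(FPKM + 1), and for Sham Mef2c against Sham Gfp -0.57 and -0.12. Eif2ak2 had -0.71 and -0.97 on log2(FPKM + 1). The interaction was then 0.43 and 0.090 for Sult6b1 and 0.71 for Eif2ak2. Without SNI Gfp libraries 4 and 6, a setting chosen after seeing the data, the interaction of Eif2ak2 was 2.03 and its SNI Gfp difference -1.98. A group-centred covariate, also added later, left Sult6b1 at -0.71 and -1.04, since it removes no difference between groups.

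With 1 library left out in turn, Sult6b1 ran from -0.77 to -0.61 for SNI Gfp against Sham Gfp, and from -1.09 to -0.94 for Sham Mef2c against Sham Gfp. Eif2ak2 ran from -1.68 to -1.18 and from -2.32 to -2.05. At equal Eif2ak2, Sult6b1 ran from -0.20 to -0.02 for the Mef2c vector after SNI. The group-centred correlation ran from 0.369 to 0.666, reaching p = 0.00852 without SNI Gfp library 2 and p = 0.0437 (r = 0.559) without SNI Gfp library 4 (permutation). Within SNI Gfp the correlation turned to -0.937 without libraries 4 and 6.

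Counts of called genes moved far more than the members. For SNI Gfp against Sham Gfp, 0 genes were called, against 1 with RLE scaling, library size alone, a 1 CPM filter or the replicate block, 557 with DESeq2, 3113 with limma-voom (quality weights), 770 and 731 on FPKM, 880 without Sham Gfp library 3, 1392 without SNI Gfp library 6 and 1870 without SNI Gfp libraries 4 and 6. For Sham Mef2c against Sham Gfp, 2233 were called, against 4363 with limma-voom and 3602 without Sham Gfp library 3. For the Mef2c vector after SNI, 1 was called, against 453 with DESeq2, 14 with limma-voom, up to 379 with 1 library left out (SNI Gfp 2) and 0 without SNI Gfp libraries 4 and 6. For SNI with the Mef2c vector 0 were called, against 29 with DESeq2 and 1 on log2(FPKM + 1).

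The labels do not say what a replicate number stands for, and same-numbered libraries did not deviate together (36 pairs, correlation -0.505 to 0.322, 9 over 0.1). With the replicate block, Sult6b1 had -0.71, -1.03, -0.25 and 0.07 in the 4 comparisons and 0.78 for the interaction, Eif2ak2 had -1.38, -2.16, -0.71 and 0.07 and 1.45, and neither passed in the 2 comparisons outside the choice. Depth limits Sult6b1, with 45 to 166 counts a library.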
